A study of Mus musculus with 30 samples.

Results

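Krüppel-like factors (KLFs) are zinc finger proteins that bind CACCC boxes and GC-rich DNA, and endothelial cells (ECs) express many of them. The 8 genes described here, Klf2, Klf3, Klf4, Klf6, Klf7, Klf9, Klf10 and Klf13, were chosen by name, and transcript estimates were summed over all annotated transcripts of each symbol. They are 8 of 21820 protein-coding genes in the annotation, and all 8 passed the filter on low counts in every comparison. In mature vessels KLF2 and KLF4 are induced by laminar blood flow through a kinase cascade (MEKK3, MEK5, ERK5) that ends on MEF2 factors at the Klf2 and Klf4 promoters, and they keep ECs quiescent, anticoagulant and weakly inflamed. KLF3 is mainly a repressor that works through CtBP proteins, KLF6 and KLF7 are mainly activators, and KLF9, KLF10 and KLF13 can repress transcription by recruiting SIN3A. KLF9 is also an immediate target of the glucocorticoid receptor, and KLF10 of TGF-beta signaling.

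The study asked what happens to the gene expression and chromatin of mouse brain ECs when they leave the brain and are grown in culture, and whether beta-catenin signaling can hold their in vivo state. RNA-seq libraries came from 2 samples of acutely isolated GFP-positive ECs and 2 samples of the GFP-negative brain cells of adult male Tie2-GFP mice, in which a Tie2 transgene labels ECs for flow sorting. They also came from 6 wild-type (WT) cultures and 4 beta-catenin stabilized cultures, all of brain ECs selected with puromycin and grown for 8 days in medium with serum, hydrocortisone and growth factors, without flow. WT cultures 1 and 2 were prepared with isolation method A (papain digestion) from C57BL/6J mice, and WT cultures 3 to 6 with method B (homogenization, then collagenase/dispase) from Ctnnb1flex3/+;Tie2-GFP mice. Stabilized cultures were from Ctnnb1flex3/+;Pdgfb-CreER;Tie2-GFP mice, 1 and 2 with method A and 3 and 4 with method B. In these mice an endothelial Cre, induced with 4-hydroxytamoxifen, which the Ctnnb1flex3/+;Tie2-GFP controls also received, removed exon 3 of beta-catenin. Brains of several mice were pooled, and replicate cultures were wells. Where a group of cultures spans several experiments, p-values reflect the spread between wells and experiments together. The main fits counted each well as a replicate, though the 6 WT wells came from 3 experiments. Wells of the same experiment were more alike than wells of different ones, so these p-values can be too small. Where a group comes from a single experiment, p-values measure only the spread between its wells. The libraries of WT 3 and 4 were prepared and sequenced, with longer reads, by another facility. The other cultures were sequenced with 36 cycles, and the sorted cells with 75 cycles from one end. ATAC-seq, which marks open chromatin with a transposase, covered 2 acute, 6 WT (1 and 2 with method A) and 2 stabilized (method B) libraries.

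RNA-seq depth was 24284843 to 94686456 estimated counts per library, and the 2 acute samples differed far more from each other than wells of the same culture experiment did. Summed endothelial markers (Pecam1, Cdh5, Tie1, Erg, Emcn, Cldn5) stood at 1476 to 1575 TPM (transcript abundance per transcript length, scaled to a fixed total) in acute ECs, at 1635 to 5507 in cultures and at 5.22 to 14.1 in GFP-negative cells. Acute libraries also held pericyte transcripts (244 to 354 TPM, against 2.25 to 12.4 in cultures; 4 of 4 markers were called lower in WT cultures, where Kcnj8 and Abcc9 averaged 0.0416 and 0.0611 TPM) and erythrocyte transcripts (5443 and 41094 TPM, against 0 to 1.39; 4 of 4 called lower, with Alas2 and Hbb-bt at 0 in all WT cultures), while smooth muscle markers reached 3068 TPM in cultures against 214 to 233 in acute ECs (3 of 4 called higher, Myh11 lower). Neuron, astrocyte and microglia markers summed to at most 13.6 TPM in acute ECs and cultures and none was called between them, nor was any fibroblast marker, and 1 oligodendrocyte marker (Mbp) was called lower. A call needed at least 5 TPM in every library of the higher group, which the uncalled markers did not reach. By adjusted p under 0.05 alone, Snap25 (log2 fold change -8.38) and Aqp4 (-8.90) were among several lower in WT cultures, and Tubb3 (7.89) and Col1a1 (4.22) were higher. In bulk samples fewer cells of a type and less RNA per cell cannot be told apart, and the part of these cells in the results below was not tested.

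On GRCm38 the annotation places Klf2 at chr8:72319033-72321656 (+), Klf4 at chr4:55527143-55532466 (-), Klf3 at chr5:64803388-64832901 (+) and Klf6 at chr13:5861482-5870394 (+). It places Klf7 at chr1:64029447-64122282 (-), Klf9 at chr19:23141226-23168134 (+), Klf10 at chr15:38291463-38300706 (-) and Klf13 at chr7:63886351-63938915 (-). Other genes overlap Klf3, Klf7, Klf9 and Klf13, and the highest level of any of them in any library was 5.21 TPM.

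Promoter sequences are shown for Klf2 and Klf4, the flow-responsive pair, and for Klf9, because open chromatin at their start sites is compared below. Each line holds the 250 bases before the RefSeq start, read 5′ to 3′ on the strand of the gene, on GRCm38.p6: chr8:72318812-72319061 (+) for Klf2, chr4:55532476-55532725 (-) for Klf4 and chr19:23140976-23141225 (+) for Klf9.
Klf2: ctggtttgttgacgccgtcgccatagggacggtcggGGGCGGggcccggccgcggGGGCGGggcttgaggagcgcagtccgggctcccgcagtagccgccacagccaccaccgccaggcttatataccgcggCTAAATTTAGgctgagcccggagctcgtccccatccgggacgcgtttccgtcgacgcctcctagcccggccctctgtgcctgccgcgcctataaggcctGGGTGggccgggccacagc
Klf4: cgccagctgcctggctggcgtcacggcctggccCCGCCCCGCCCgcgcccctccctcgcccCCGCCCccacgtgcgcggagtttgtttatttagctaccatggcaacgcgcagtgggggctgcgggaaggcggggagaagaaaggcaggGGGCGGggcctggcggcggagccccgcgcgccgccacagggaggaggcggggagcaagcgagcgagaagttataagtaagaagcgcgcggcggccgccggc
Klf9: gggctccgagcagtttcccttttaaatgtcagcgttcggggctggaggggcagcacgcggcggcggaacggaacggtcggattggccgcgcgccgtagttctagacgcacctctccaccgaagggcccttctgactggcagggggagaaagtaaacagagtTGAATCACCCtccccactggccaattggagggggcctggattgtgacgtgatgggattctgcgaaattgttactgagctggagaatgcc
Capitals mark matches, on either strand, to the KLF box CACCC, the GC box GGGCGG, the MEF2 consensus, the TCF/LEF letters CTTTG followed by 2 bases that are each A or T, the AP-1 letters TGANTCA and the serum response element consensus; neighbouring or overlapping matches run together, as 1 pair of GC boxes does in Klf4 and the AP-1 and KLF letters do in Klf9. Klf2 held a MEF2 match 109 to 118 bases before its start, which 1.73% of 27025 promoters of this length hold, and none of the other 6 members with a promoter entry held one. Klf2 also had 2 GC boxes and 1 KLF box. Klf4 had 4 GC boxes and no KLF box, and Klf9 had 1 KLF box overlapping 1 AP-1 match and no GC box. Of all promoters 51.3% held the KLF box, 32.9% the GC box and 6.87% the AP-1 letters. Letters alone do not make a binding site.

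Levels between genes were compared in TPM, which is per transcript length. In acute ECs Klf3 was highest (449 ± 146 TPM, mean ± SD, n = 2), a rank that rests on the short transcript Klf3-206 described below, since its longest transcript alone was at 8.74 and 16.6 TPM. It was followed by Klf4 (116 ± 36.8), Klf2 (84.6 ± 0.892), Klf6 (70.5 ± 19.1), Klf9 (66.8 ± 22.3), Klf7 (24.5 ± 7.03), Klf13 (21.2 ± 10.8) and Klf10 (9.06 ± 4.42). The ranges of Klf6 and Klf9 overlapped, as did those of Klf7 and Klf13. The other neighbours did not overlap, but Klf2 (84.0 and 85.2 TPM) and Klf6 (57.0 and 83.9) nearly touched. In WT cultures Klf6 stood first by level (305 ± 83.1 TPM, n = 6), and its range did not overlap that of any other member. Klf13 (57.8 ± 58.2), Klf3 (44.3 ± 46.4), Klf2 (43.1 ± 18.5), Klf10 (27.8 ± 20.4) and Klf9 (21.8 ± 10.1) followed, each overlapping the next, and Klf7 (6.88 ± 2.85) and Klf4 (4.08 ± 2.25) overlapped at the bottom. Klf4 thus stood second of the 8 in acute ECs and eighth in WT cultures. Stabilized cultures also had Klf6 first (305 ± 130 TPM, n = 4), with Klf4 (6.47 ± 5.72) and Klf7 (5.95 ± 1.64) last. In GFP-negative cells Klf3 (176 ± 81.7 TPM, n = 2) and Klf9 (74.3 ± 25.2) led. The Klf3 rank again rests on Klf3-206, since its longest transcript alone was at 4.06 and 7.31 TPM. The coding Klf9-201 alone was at 30.0 and 35.8 TPM.

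Between groups, counts were compared per gene as TMM-scaled CPM, that is, counts scaled to a common library size, with fold changes from edgeR's quasi-likelihood test and p-values adjusted by the Benjamini-Hochberg method over all genes tested. A gene was called when the adjusted p was under 0.05, the fold over 2 and TPM at least 5 in every library of the higher group. The plot of CPM by library shows each value behind these tests.

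**Figure D1:**
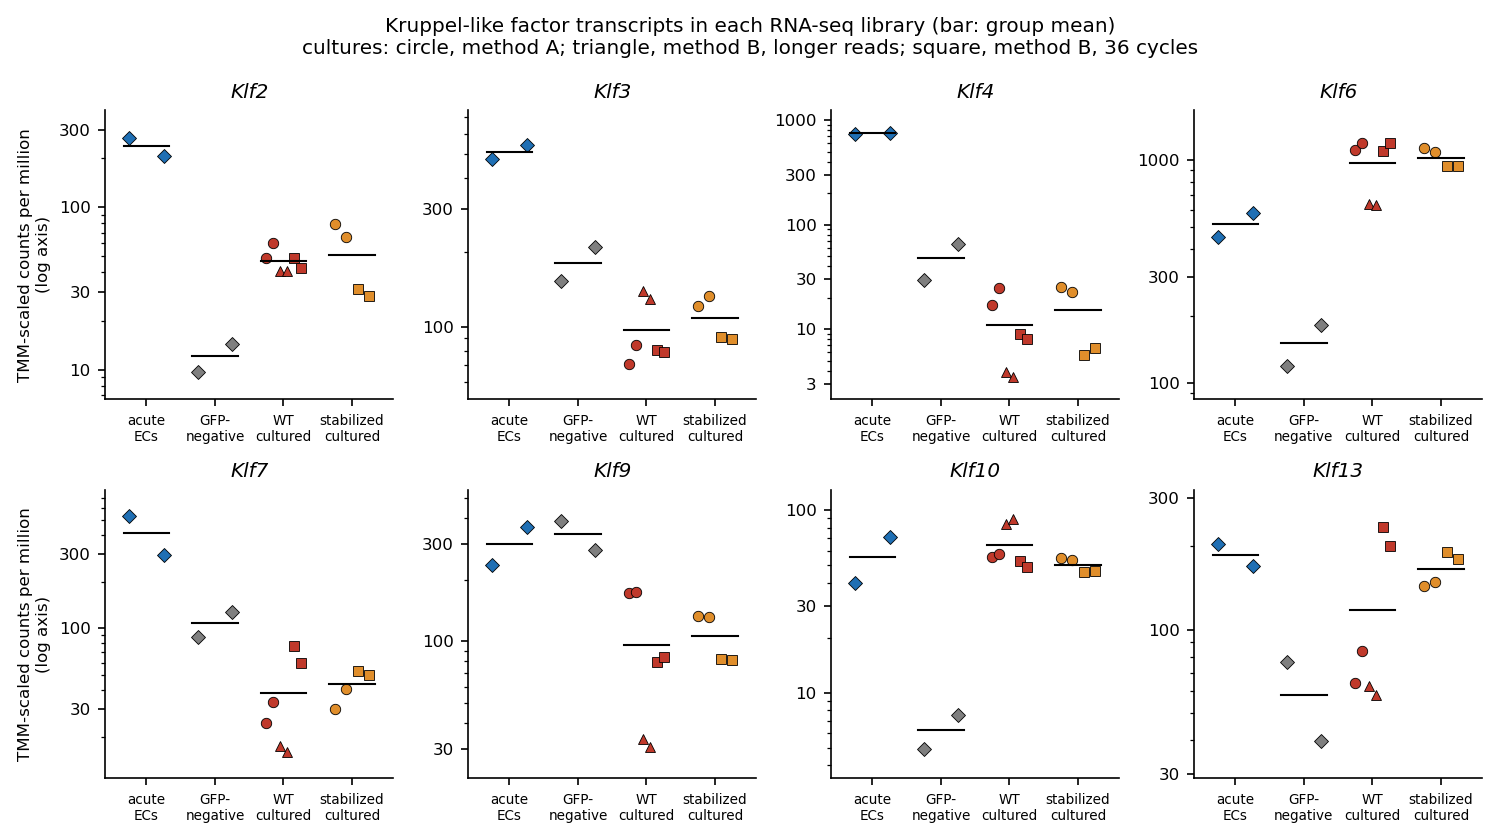
TMM-scaled CPM (log axis) of the 8 genes in each of 14 RNA-seq libraries, by group; bars are group means, and marker shapes in the cultures give isolation method and read format. All cultures lie below both acute ECs for Klf2, Klf3, Klf4, Klf7 and Klf9, and all lie above them for Klf6. The share of all genes whose groups lie apart in this way was not counted, here or in the comparisons below.

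In the freshly sorted brain, most of these factors were higher in the GFP-positive fraction by the main fit. All 6 endothelial markers were called higher there, but pericyte markers did not separate the fractions. They summed to 244 to 354 TPM in acute ECs and 222 to 446 in GFP-negative cells, with 0 of 4 called. Between acute ECs and GFP-negative cells, 7 of 8 members were called higher in ECs and 0 lower, where 8.30% of 15101 genes were called higher and 7.56% lower. Over the members the log2 fold change had a median of 1.88, against -0.06 over all genes tested. Klf2 stood at 268 and 206 CPM in ECs and at 9.76 and 14.5 in GFP-negative cells (log2 fold change 4.31 ± 0.41 SE, adjusted p = 0.00203). Klf4 stood at 736 and 761 CPM against 29.4 and 65.6 (4.00 ± 0.49, adjusted p = 0.00359). The groups were far apart for both genes.

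Klf10 was at 39.7 and 70.9 CPM in ECs against 4.91 and 7.53 in the other cells (log2 fold change 3.17 ± 0.56). Klf6 (1.79 ± 0.36), Klf7 (1.96 ± 0.42), Klf13 (1.70 ± 0.42) and Klf3 (1.5 ± 0.32) were also called higher, with no overlap between groups. Klf9 differed from them: its values of 235 and 362 CPM in ECs overlapped 387 and 280 in GFP-negative cells (-0.14 ± 0.36, adjusted p = 0.795). When counts were corrected for the length of the transcripts assigned, only Klf2, Klf4 and Klf6 of the 8 kept the call, and without the first GFP-negative sample 4 members kept it, Klf3 (1.30), Klf6 (1.52) and Klf7 (1.71) losing it. Klf7 (1.36) and Klf13 (1.43) also lost it without the first acute sample, and Klf13 (1.31) without the second GFP-negative sample.

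The flow-responsive pair was lower in culture. Klf4 fell from 736 and 761 CPM in acute ECs to a lowest of 3.50, a median of 8.55 and a highest of 24.5 CPM in the 6 WT cultures (log2 fold change -6.09 ± 0.67 SE, adjusted p = 0.000291). Klf2 fell from 268 and 206 CPM to between 40.3 and 60.4, with a median of 45.4 (-2.35 ± 0.25, adjusted p = 0.000247). In TPM Klf2 was at 84.0 and 85.2 in acute ECs, at 25.7 to 67.2 in WT cultures and at 15.6 to 71.1 in stabilized cultures. The direction was the same on this scale, but the difference was smaller, so its size depends on the scale. Every culture was below both acute samples for both genes, and the call held in each alternative run for this comparison. In culture 10.2% of 13785 genes were called lower and 13.5% higher, and of the 8 members 4 were called lower (Klf2, Klf3, Klf4, Klf7) and 0 higher; their log2 fold changes had a median of -1.996, against 0.10 over all genes tested.

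Klf7, an activator best known from neurons, fell from 529 and 297 CPM to between 16.0 and 77.1 with a median of 28.9 (log2 fold change -3.45 ± 0.58, adjusted p = 0.00175). Klf3 fell from 474 and 541 CPM to between 70.8 and 140 with a median of 82.5 (-2.39 ± 0.32, adjusted p = 0.000657), but the size of the difference and its call rested on which transcripts the reads were assigned to. Corrected for transcript length the Klf3 difference was -4.35 (adjusted p = 0.000446), and that of Klf7 -2.46, still called. Restricted to its longest protein-coding transcript, the Klf3 difference was -0.98 with an adjusted p of 0.00902, under the fold threshold; this alternative was chosen after the data were seen.

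Klf6, which is induced in ECs by injury, moved the other way without being called. It was at 450 and 581 CPM in acute ECs and at 629 to 1195 CPM in WT cultures, with a median of 1104 (log2 fold change 0.92 ± 0.40, adjusted p = 0.0899). The groups did not overlap, and WT 3 and 4, the longer-read cultures, were the lowest at 638 and 629 CPM. Without those 2 libraries the fold change was 1.16 (adjusted p = 0.00973) and Klf6 was called higher, as it was with library size scaling (1.10), with a correction for transcript length (1.51) and in method A cultures alone (1.15).

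The SIN3A-binding members did not pass the test, with Klf9 close to the threshold. Klf9 was at 235 and 362 CPM in acute ECs and at 30.6 to 174 CPM in WT cultures, with a median of 81.5 (log2 fold change -1.64 ± 0.64, adjusted p = 0.0609). It was lower in 6 of 6 cultures than in both acute samples, and was called in method B cultures alone (-2.39, adjusted p = 0.0109) but not in method A cultures (-0.79, adjusted p = 0.0649). It was also called without WT 1 (-1.89) or without WT 2 (-1.90), with DESeq2's test (-1.74, adjusted p = 0.0288), with DESeq2's size factors in edgeR (-1.74, adjusted p = 0.0483), with the correction for transcript length (-2.02, adjusted p = 0.0188), in a fit of all 14 libraries (-1.64, adjusted p = 0.0212) and in the cultures with 36 cycles (-1.23, adjusted p = 0.0481). Klf10 overlapped between groups, at 39.7 and 70.9 against 48.8 to 89.5 CPM (0.22 ± 0.36, adjusted p = 0.636). Klf13 stood at 204 and 169 CPM in acute ECs and at 58.3 to 235 in cultures (-0.67 ± 0.59, adjusted p = 0.373); the 4 cultures WT 1 to 4 were at most 83.8 CPM and WT 5 and 6 at 235 and 201. In method A cultures alone Klf13 was called lower (-1.34), and with the correction for transcript length its sign turned (0.53). In TPM, Klf10 was at 12.9 to 54.9 in WT cultures and at 5.94 and 12.2 in acute ECs, with no overlap, so its values depend on the scale. Klf13 was at 10.4 to 146 TPM (median 29.4) in WT cultures and at 13.5 and 28.8 in acute ECs, and its mean in WT cultures was carried by WT 3 and 4.

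Stabilized cultures, which share the acute libraries with the comparison above and so are no independent check of it, gave 5 members called lower than acute ECs and 0 higher, where 11.0% of 13889 genes were called lower and 15.1% higher. The log2 fold changes were -5.65 for Klf4, -3.26 for Klf7, -2.24 for Klf3, -2.23 for Klf2 and -1.5 for Klf9. Klf6 was at 945 to 1138 CPM in these 4 cultures (0.98 ± 0.21, adjusted p = 0.00741), just under the fold threshold; it was called without stabilized 3 (1.02), stabilized 4 (1.02) or acute 2 (1.19). Klf10 (-0.16) and Klf13 (-0.18) did not pass the test. The plot of fold changes sets the comparisons beside each other.

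**Figure D2:**
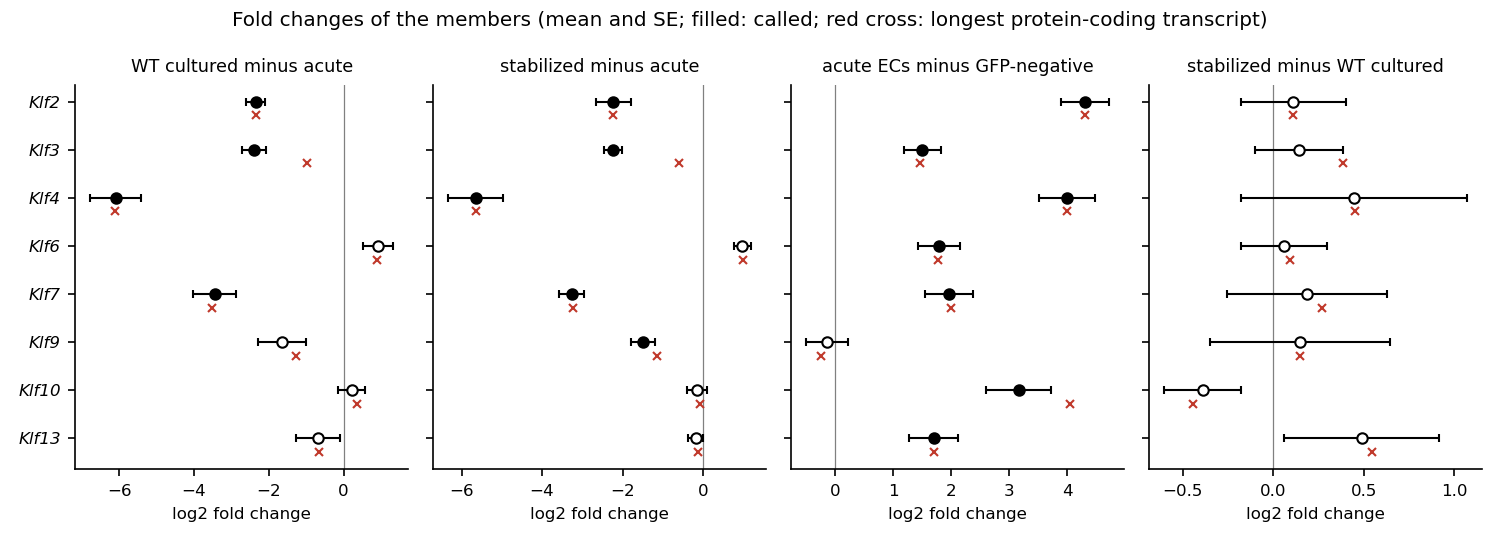
Log2 fold changes of the 8 genes (circle and bar: estimate and SE; filled: called) in 4 comparisons, with the fold change of the longest protein-coding transcript as a red cross. Klf3 is the member whose cross lies farthest from its circle in both comparisons with acute ECs (-0.98 against -2.39 in WT cultures), and no circle is filled between stabilized and WT cultures.

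The transcripts behind the gene sums differed between library types. In acute ECs most Klf3 TPM was assigned to Klf3-206, a short annotated transcript of 809 bases, at 332 and 521 TPM, and in GFP-negative cells at 114 and 221 TPM. In all 10 cultures Klf3-206 was at 0 to 2.70 TPM. Klf3-201, the longest transcript with 5221 bases, was at 8.74 and 16.6 TPM in acute ECs and at 10.3 to 40.1 TPM in cultures. By estimated counts Klf3-206 held 67.3% and 63.9% of the gene in acute ECs and at most 2.40% in cultures.

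Klf9 had the same kind of split: Klf9-202, a processed transcript, was at 38.7 and 47.1 TPM in acute ECs, at 62.2 and 20.7 in GFP-negative cells and at no more than 0.80 in any culture. The coding Klf9-201 was at 12.4 and 35.4 TPM in acute ECs and at 14.4 to 43.6 TPM in cultures, so the groups overlapped on this transcript. The longer-read cultures WT 3 and 4 stood apart on 4 genes: Klf7-201 was at 7.63 and 7.39 TPM there and at 0.14 to 0.85 TPM in the other cultures, Klf13-204 (487 bases) at 130 and 102 TPM against at most 5.52 TPM in the other cultures, Klf6-202 at 155 and 151 TPM against 19.6 to 57.7, and Klf3-208 at 48.2 and 46.4 TPM against 0. Sorted cells were sequenced from one end and cultures from both, so read format and culture cannot be told apart at these transcripts. The start of Klf3-206 had no ATAC peak within 1000 bases in any of 10 libraries, whereas the start of Klf3-201 had one in all 10. The start of Klf9-202 had one in 7 cultures and in neither acute library.

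**Figure D3:**
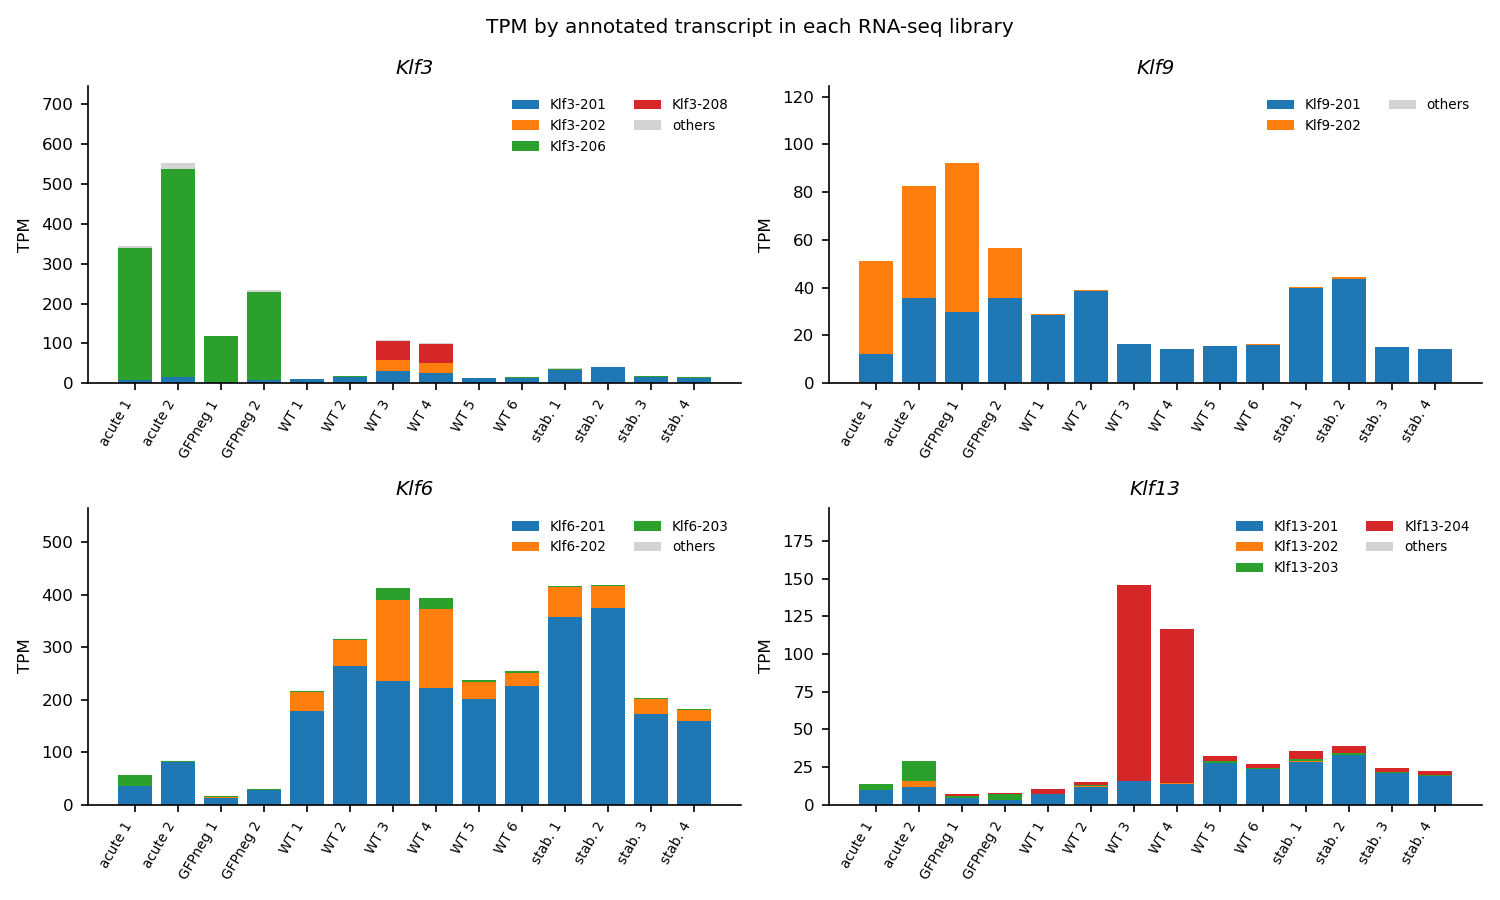
Stacked TPM of the annotated transcripts of Klf3, Klf9, Klf6 and Klf13 in each of 14 RNA-seq libraries. Klf3-206 and Klf9-202 fill much of the bars of the sorted cells and are almost missing from the cultures, and Klf13-204 is large in WT 3 and 4 (130 and 102 TPM).

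Stabilized beta-catenin did not separate the members from WT cultures when all wells were pooled. Of 12959 genes edgeR called 0 higher and 0 lower, which is 0% in each direction, and none of the 8 members; 1344 genes (10.4%) and 0 members had an unadjusted p under 0.05, and DESeq2 called 15 genes higher and 3 lower, none of them a member. Klf4 stood at 25.5, 22.8, 5.70 and 6.57 CPM in stabilized cultures 1 to 4, and Klf2 at 79.2, 65.8, 31.4 and 28.6 CPM. The first 2 values of each gene are from method A and the last 2 from method B, and method A was the higher of the pair for both genes in WT cultures as well. Pooled log2 fold changes lay between -0.39 (Klf10) and 0.49 (Klf13), and the smallest adjusted p of a member was 0.536.

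Within 1 isolation method and 1 read format, stabilized wells were apart from WT for several members, by less than the fold threshold. Each group in these 36-cycle fits was 1 pair of sister wells, so the p-values measure only the spread between sister wells. Stabilization and any difference between 1 cell preparation and another cannot be told apart. With method A, Klf13 was higher in stabilized cultures (144 and 149 against 64.3 and 83.8 CPM, log2 fold change 0.94 ± 0.12, adjusted p = 0.00134), as were Klf3 (0.68, adjusted p = 0.00232) and Klf2 (0.37, adjusted p = 0.0410), and Klf9 was lower (133 and 132 against 173 and 174 CPM, -0.43, adjusted p = 0.00275). With method B and 36 cycles (stabilized 3 and 4 against WT 5 and 6, a restriction chosen after the data were seen), Klf2 was lower in stabilized cultures (31.4 and 28.6 against 48.6 and 42.3 CPM, -0.60, adjusted p = 0.00621), as were Klf4 (-0.48, adjusted p = 0.0297) and Klf6 (-0.28, adjusted p = 0.0105), and Klf3 was 0.17 higher (adjusted p = 0.0422). With the longer-read WT 3 and 4 added, no member passed the test within method B: Klf3 turned to -0.26, Klf4 to 0.002 and Klf13 to 0.42, and Klf2 stood at -0.53 (adjusted p = 0.521). Klf2 thus lay on opposite sides of WT in the 2 methods. No member reached the fold threshold in either method, where 5.39% of genes were called higher and 0.918% lower with method A, and 1.08% and 0.288% with method B. Method A controls were C57BL/6J and carried neither Tie2-GFP nor the floxed allele, while method B controls carried both, so with method A stabilization and these alleles cannot be told apart.

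Tested directly on the 8 cultures with 36 cycles, so without WT 3 and 4, the effect of stabilization differed between methods for 5 of 8 members (adjusted p under 0.05), where 49.6% of 13357 genes differed. These p-values too measure only the spread between sister wells. The difference, method B minus method A in log2 units, was -1.15 ± 0.17 for Klf13 (adjusted p = 0.000870), -0.95 ± 0.18 for Klf2 (0.00244), 0.45 ± 0.09 for Klf9 (0.00302), -0.48 ± 0.12 for Klf3 (0.0104) and -0.62 ± 0.22 for Klf4 (0.0464). Fitted with the replicate number as a block, which pairs stabilized 1 to 4 with WT 1 to 4 and so sets stabilized 3 and 4 against the longer-read WT 3 and 4, Klf13 was called higher (1.29 ± 0.18, adjusted p = 0.0439), with 1.17% of genes called higher and 0.313% lower. WT 5 and 6, in which Klf13 was at 235 and 201 CPM, take no part in that fit.

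**Figure D4:**
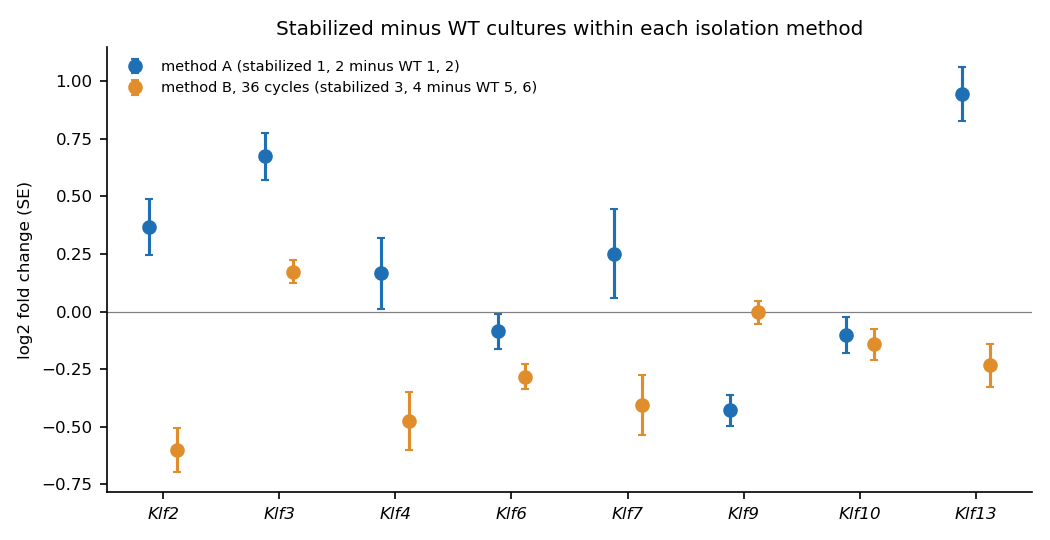
Log2 fold change (SE) of stabilized against WT cultures for the 8 genes, within method A (2 against 2 wells) and within method B with 36 cycles (2 against 2 wells). Klf2, Klf4, Klf7 and Klf13 have estimates above 0 with method A and below 0 with method B; of these effects, those of Klf7 with both methods, Klf4 with method A and Klf13 with method B did not pass the test.

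WT cultures themselves differed by experiment. Among the 3 pairs of WT wells, 4 of 8 members were called different (adjusted p under 0.05 and a range over 1 in log2), where 58.5% of 13051 genes were. Klf4 spanned 2.48 log2 units, highest in WT 1 and 2 at 17.1 and 24.5 CPM and lowest in WT 3 and 4 at 3.86 and 3.50. Klf9 spanned 2.41 with the same order, from 173 and 174 CPM down to 33.4 and 30.6. Klf7 (1.95) and Klf13 (1.77) were highest in WT 5 and 6. Klf2, the least variable member in this test, spanned 0.41. In TPM, WT 3 and 4 were instead highest for Klf7 (10.2 and 9.46, against 7.79 and 6.16 in WT 5 and 6). The same held for Klf13 (146 and 116, against 32.2 and 26.7). For Klf2 they were lowest in CPM (40.3 and 40.6) but highest in TPM (67.2 and 63.8, in a range from 25.7). Klf4 and Klf9 stayed highest in WT 1 and 2. The order for Klf2, Klf7 and Klf13 thus depends on the scale. WT 3 to 6 shared method B and genotype. Between WT 3 and 4 and WT 5 and 6, Klf7 and Klf13 had their full range in the test on counts. These pairs differed in experiment, read format and the facility that prepared and sequenced the libraries, which cannot be told apart. Between WT 1 and 2 and the others, method and genotype changed as well. Smooth muscle markers moved with the experiment too, at 501 to 561 TPM in WT 1 and 2, 2023 to 2178 in WT 3 and 4 and 3049 to 3068 in WT 5 and 6; their part in the differences was not tested.

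The other genes of the KLF network are given by list. Over all genes tested against acute ECs, 10.2% were called lower and 13.5% higher in WT cultures, and 11.0% and 15.1% in stabilized cultures. Among the other KLF genes 6 of 9 could be tested in WT cultures against acute ECs. Klf11 (log2 fold change -2.55) and Klf12 (-3.27) were called lower and Klf16 (1.87) higher, with a list median of -0.44 against 0.10 over all genes. Klf15 (-4.36, adjusted p = 0.00701) missed the TPM threshold in 1 acute sample: it stood at 18.7 and 0.40 TPM there. Klf11 (3.0) and Klf12 (1.93) were also called higher in acute ECs than in GFP-negative cells, like most members.

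Of 13 genes of the flow pathway upstream of Klf2 and Klf4, 5 were called lower and 2 higher in WT cultures (median -0.98), where 10.2% of all genes tested were called lower and 13.5% higher. The 3 MEF2 factors fell together (Mef2c -2.30, Mef2a -1.94, Mef2d -1.66), as did Hdac5 (-1.19), a MEF2 corepressor, and Heg1 (-1.13), a junctional receptor that binds the CCM complex. Mean TPM was not lower for Mef2d (17.9 in WT cultures, 14.4 in acute ECs) or Heg1 (115 and 114). Mapk7, which encodes ERK5, rose (1.87), as did Ccm2 (1.96). Piezo1, the mechanosensitive channel, did not pass the test (0.74, adjusted p = 0.260). In stabilized cultures against the same acute libraries, 3 genes were called lower and 3 higher.

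Known target genes of KLF2 and KLF4 were compared as well. Of 5 genes that they activate, Ptgds (-5.09), Gja4 (-3.37) and Thbd (-1.06) were called lower in WT cultures and 0 higher (median -1.35). Over all genes tested 10.2% were called lower and 13.5% higher. Nos3, the endothelial nitric oxide synthase, was at -1.35 with an adjusted p of 0.0822, and S1pr1, a sphingosine 1-phosphate receptor, at 0.87 with an adjusted p of 0.0576. Ptgds was far higher in GFP-negative cells (acute ECs minus GFP-negative -4.69), while Nos3 (8.33) and Thbd (3.50) marked ECs. Gja4 (0.40, adjusted p = 0.693) and S1pr1 (0.23, adjusted p = 0.686) did not pass the test between acute ECs and GFP-negative cells. Mean TPM was 72.7 in WT cultures and 46.7 in acute ECs for Thbd and 55.0 and 43.3 for Nos3, opposite in direction to the fold changes of their counts, so their direction depends on the scale. The summed TPM of the list was 235 to 882 in WT cultures and 177 and 214 in acute ECs.

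Of 6 genes that KLF2 or KLF4 repress, 4 were called higher and 0 lower, with a median of 4.29. Over all genes tested 13.5% were called higher and 10.2% lower. Thbs1 rose by 9.64, Angpt2 by 5.28 and Edn1 by 3.30 on the log2 scale. Ccl2, a chemokine, had no count in either acute sample and was at least 4365-fold higher in WT cultures, taking 3 counts per acute library as the floor. Vcam1 (2.03, adjusted p = 0.132) and Sele (0.10) did not pass. In stabilized cultures against acute ECs 5 of these 6 genes were called higher and 3 of 5 activated genes lower, and no gene of any list was called between stabilized and WT cultures.

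Beside Klf9, 8 genes cover the glucocorticoid receptor and its targets, and 3 were called higher and 1 lower in WT cultures. Over all genes tested 13.5% were called higher and 10.2% lower. The receptor Nr3c1 was called lower (-2.25), and its targets Fkbp5 (5.34), Sgk1 (2.57) and Errfi1 (2.55) higher. The targets Tsc22d3 (0.70, adjusted p = 0.242), Zbtb16 (0.64), Dusp1 (0.28) and Per1 (-1.13, adjusted p = 0.163) did not pass. Of 9 partners of the KLF proteins, Ep300 (-3.45), Crebbp (-2.64) and Sin3a (-2.10) fell and Sin3b rose (1.69), and the CtBP genes Ctbp1 (0.23) and Ctbp2 (-0.25) did not pass. Immediate early genes are known to respond to tissue dissociation. Of 8, Nr4a1 (-3.69), Jun (-2.41), Egr1 (-2.40) and Ier2 (-1.17) were called lower and 0 higher (median -1.78). Atf3 (1.88), Junb (0.51), Fos (0.13) and Fosb (-2.73) did not pass. Fos was at 602 and 588 CPM in WT 1 and 2 and at 15.4 to 37.7 CPM in WT 3 to 6. Mean TPM of Ier2 was not lower in WT cultures (46.7, against 32.8 in acute ECs). Their summed level already differed between the 2 acute samples, at 160 and 724 TPM.

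ATAC-seq gave peaks called in each library, with a fold enrichment over the local background that depends on the library. All 8 members had a peak within 1000 bases of the start in all 10 libraries, against 50.3% to 61.6% of 21820 genes by library. With 2 acute libraries against 6 WT libraries the smallest two-sided p of an exact permutation test is 0.0714, so no test was made. At Klf4 the start-site fold enrichment was 10.9 and 10.2 in acute ECs, 6.20 to 10.5 in WT cultures and 8.31 and 8.13 in stabilized cultures, and WT 6 at 10.5 lay between the acute libraries. At Klf2 it was 17.1 and 16.8 in acute ECs, 12.6 to 17.9 in WT and 15.5 and 15.3 in stabilized cultures, again overlapping. Ranked within each library among all start sites with a peak, the acute libraries lay above all 8 cultures at both genes: Klf4 at percentiles 36.9 and 35.4 against 19.9 to 27.0, and Klf2 at 79.1 and 80.2 against 57.1 to 76.5. The share of all start sites at which acute libraries and cultures lie apart was not counted, for these genes or the other members. The start sites of both genes were open in every library.

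At Klf3 the acute libraries were apart, at 14.2 and 13.1 against 7.22 to 10.4 in all 8 cultures, as were those at Klf6 (12.3 and 14.1 against 8.73 to 11.7). Klf9 ran the other way, with 9.78 and 8.30 in acute ECs against 9.96 to 12.5 in cultures, and so did Klf13, with 8.70 and 8.38 against 9.32 to 11.9. Klf7 and Klf10 overlapped. Ranked within each library, Klf9 (percentiles 30.5 and 25.0 against 33.8 to 56.6) and Klf13 (25.1 and 25.3 against 29.3 to 62.7) stayed lower in the acute libraries, while Klf6 (46.7 and 62.9 against 27.2 to 55.1) and Klf3 (59.9 and 55.1 against 19.8 to 56.7) overlapped. Over all start sites with a peak the median fold was 12.8 and 12.4 in the acute libraries and 9.17 to 14.8 in cultures.

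Regions up to 20000 bases on either side of the genes showed sites present in 1 state only. Across the 8 loci 105 merged regions were found: 27 (25.7%) were in all 10 libraries, 5 (4.76%) in both acute libraries and no culture, and 3 (2.86%) in all 8 cultures and neither acute library. Over the genome, with 126224 regions, the shares were 13.4%, 2.84% and 8.01%. These 8 sites were picked by their values, so their absence or presence is a description. They also depend on depth, since WT 2 had 33152 peaks, the acute libraries 31844 and 37453, and the other cultures 50450 to 98840.

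The regions lost in culture lay at Klf2 (5639 and 14570 bases downstream of the start, fold enrichment 2.90 to 3.75 and 5.01 to 5.79), in an intron of Klf7 (29092 bases, 2.66 to 3.48) and at Klf9. The 2 Klf9 sites were the strongest, in an intron 22376 bases from the start (9.93 and 10.4) and 29440 bases from it, beyond the end of the gene (13.0 and 10.2). The regions gained in all cultures lay upstream of Klf4 (7.55 to 17.4), 30991 bases downstream of the Klf3 start (4.52 to 16.3) and 10068 bases downstream of the Klf6 start (4.28 to 7.76). The gained Klf4 site thus accompanied the gene whose counts fell most, and the same locus kept its other 3 peaks in all 10 libraries.

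**Figure D5:**
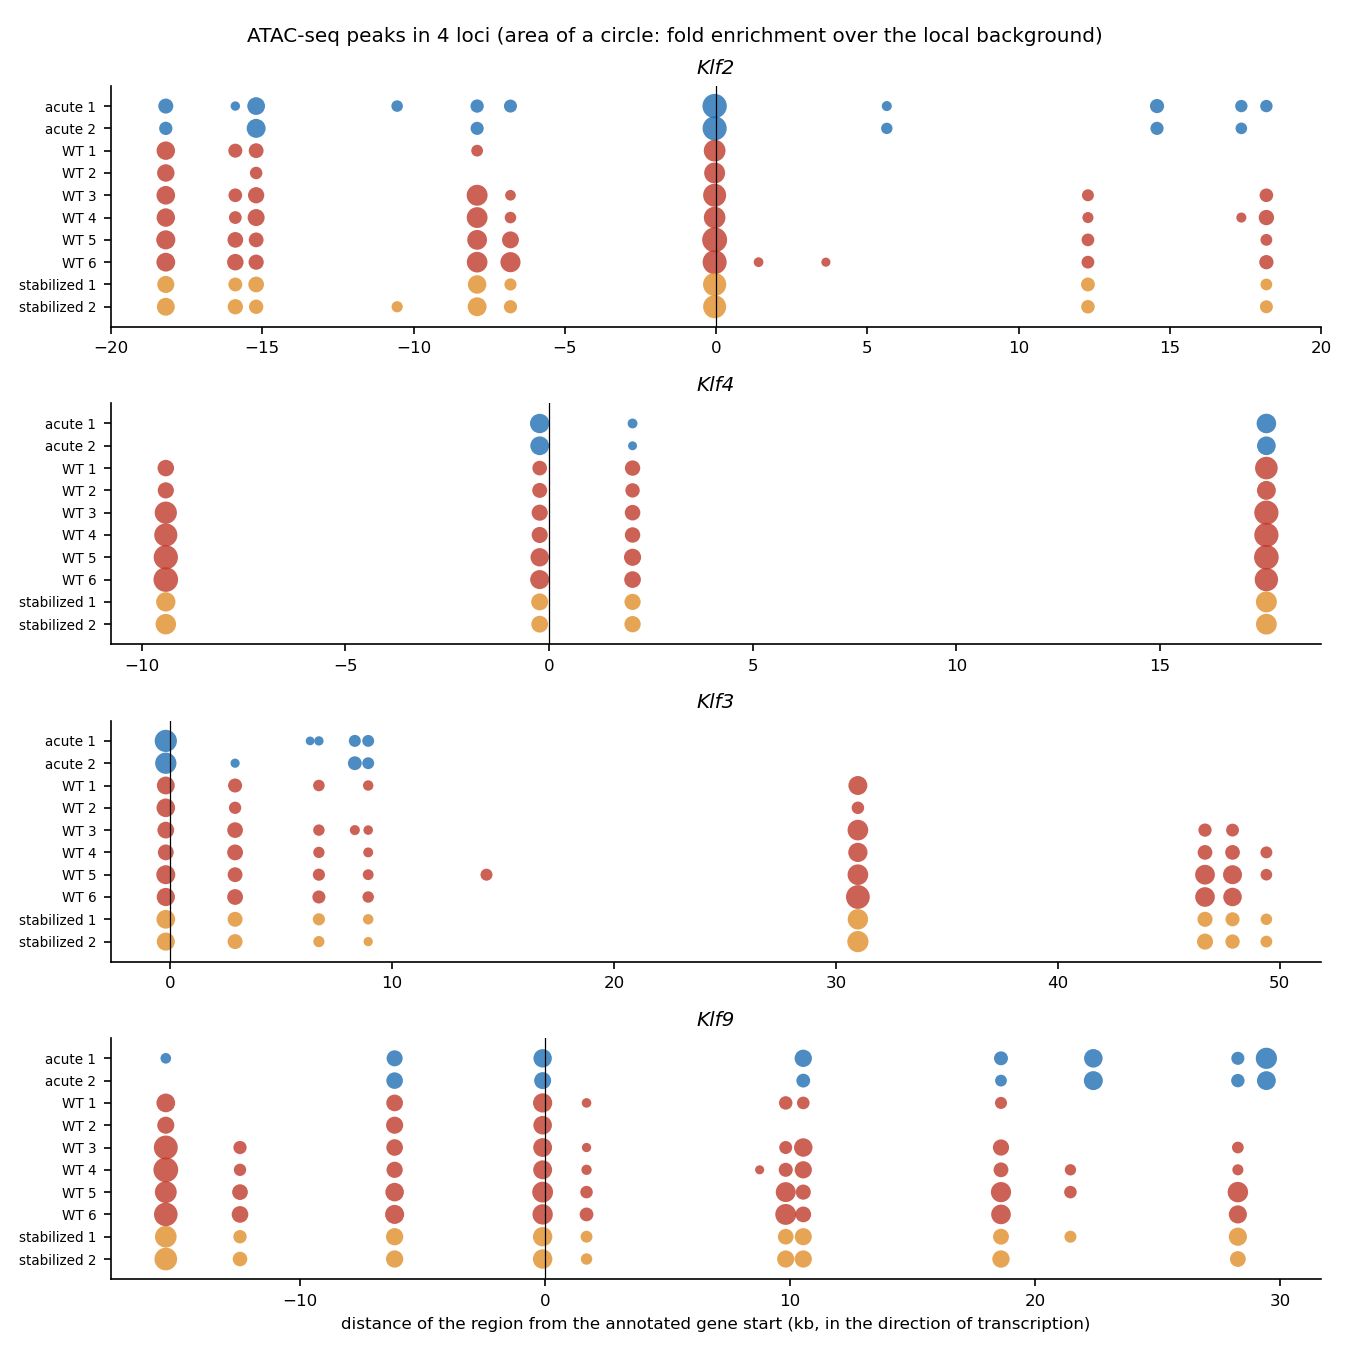
ATAC-seq peaks at Klf2, Klf4, Klf3 and Klf9 in 10 libraries (rows) by distance from the gene start in kb; the area of a circle gives the fold enrichment. Klf4 and Klf3 each gain 1 site in all 8 cultures, and Klf9 and Klf2 each have 2 sites in the acute libraries alone.

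Sequences around the summits, 201 bases each on the forward strand of GRCm38.p6, are shown for 4 of these sites because they carry the gained and the strongest lost peaks: chr4:55541770-55541970 (Klf4, gained), chr5:64834279-64834479 (Klf3, gained), chr19:23170566-23170766 and chr19:23163502-23163702 (Klf9, lost). None lies in an exon of a protein-coding gene. Capitals mark the letters of the motifs listed for the promoters.
Klf4 gained site: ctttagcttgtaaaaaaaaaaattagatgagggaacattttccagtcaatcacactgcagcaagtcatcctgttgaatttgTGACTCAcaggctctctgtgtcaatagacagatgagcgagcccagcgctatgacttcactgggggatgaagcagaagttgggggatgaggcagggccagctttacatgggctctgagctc
Klf3 gained site: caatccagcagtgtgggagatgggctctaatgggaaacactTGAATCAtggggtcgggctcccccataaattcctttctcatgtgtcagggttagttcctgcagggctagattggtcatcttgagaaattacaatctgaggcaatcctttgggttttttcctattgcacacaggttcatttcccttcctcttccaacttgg
Klf9 lost site beyond the gene: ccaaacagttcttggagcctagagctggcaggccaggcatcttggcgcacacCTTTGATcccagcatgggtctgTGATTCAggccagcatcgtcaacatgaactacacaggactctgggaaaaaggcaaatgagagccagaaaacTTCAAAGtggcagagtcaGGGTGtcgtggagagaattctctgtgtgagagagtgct
Klf9 lost site in the intron: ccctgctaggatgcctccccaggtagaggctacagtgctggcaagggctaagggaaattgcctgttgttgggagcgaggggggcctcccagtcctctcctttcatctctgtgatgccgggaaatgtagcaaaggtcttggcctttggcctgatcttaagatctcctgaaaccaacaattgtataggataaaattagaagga
The gained sites at Klf4 and Klf3 each held 1 AP-1 match, and the gained site at Klf6, not shown, held none. AP-1 letters occurred in 49.6% of all regions gained in every culture, in 3.51% of regions found in both acute libraries alone and in 25.2% of all regions. The Klf9 site beyond the gene held 2 TCF/LEF matches, the letters of the factors that beta-catenin binds, with 1 AP-1 match and 1 KLF box. TCF/LEF letters occurred in 37.8% of regions found in the acute libraries alone, in 14.2% of gained regions and in 15.6% of all. No peak was called at this site in the 2 stabilized or the 6 WT libraries. The intronic Klf9 site held none of the letters searched.

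Genes whose TPM ran most like a member over the 14 RNA-seq libraries are given as a description (Pearson r of log2(TPM + 1), over 10689 genes with at least 5 TPM in 2 or more libraries); the libraries share group, read format and experiment. They were Grasp (0.98) and Gimap1 (0.96) for Klf2, and Epas1 (0.98), the hypoxia-inducible factor subunit, and Alpl (0.97), alkaline phosphatase, for Klf4. Klf6 ran with Rab22a (0.995) and Rpl23 (0.99), Klf13 with Tmppe (0.99) and Fbxl7 (0.99), and Klf10 with Lrp10 and Wars (both 0.98). Klf3 ran with Morf4l1 and Fam13a (both 0.98), Klf7 with Traf5 and Gbf1 (both 0.96), and Klf9 with Nebl (0.97) and Baz2b (0.96). Over the 10 cultures alone the r of log2 CPM was 0.91 between Klf4 and Klf9 and 0.94 between Klf7 and Klf13, and the genes of each pair had their highest WT values in the same experiment.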

How the data were processed

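RNA-seq was analysed in 14 libraries and ATAC-seq in 10; samples from cerebrum alone were not analysed here. The deposited tables held Salmon 0.14.0 estimated counts and TPM for 140198 GENCODE transcripts (GRCm38), made by the authors from the reads of each library. Estimated counts were summed per gene, rounded and tested with edgeR 4.0.16 (R 4.3.3; filterByExpr, TMM, glmQLFit, glmQLFTest), with Benjamini-Hochberg adjustment over all genes tested; DESeq2 1.42.0 was an alternative. The authors' peak files held MACS2 2.1.2 peaks per library after HISAT2 2.1.0 alignment, with the fold enrichment and the deposited −log10 q; the authors' filter of fold over 2 and −log10 q over 2 was applied. A peak within 1000 bases counted for a start site.

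Salmon shares reads among transcripts and similar genes, so sums over a gene are firmer than single transcripts. Reads of the sorted cells came from one end and those of the cultures from both. The edgeR step was tested on simulated data. No 2 libraries were alike within sampling noise. Replicate numbers paired stabilized with WT cultures (correlations of deviations 0.31 to 0.38 for the 4 same-numbered pairs, but also 0.30 to 0.38 for differently numbered pairs of the same method, so that what they share is the method), but not the other groups. The genes, lists, motifs and tests were chosen with earlier results of these data known. The named genes were all 8 members, list genes that were called (at most 4 per list by fold, with exceptions where a complete list of calls is given), Nos3, Thbd, Fkbp5 and Tsc22d3, and the 2 genes most like each member. Some uncalled list genes are also named beside the calls. The locus regions and the sequences shown were chosen after their values were seen. Sequences are from RefSeq and GRCm38.p6. Klf10 had no promoter entry. One gene of the lists is not reported here and was left out of its list's counts. Alternatives were other scalings, filters, library subsets, the wells of an experiment summed, a replicate block and leaving out each library.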

Additional observations from a re-analysis of the deposited data

Results flagged for a closer look

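The effect of stabilized beta-catenin differed between isolation methods by the interaction test for 5 members, in log2 units of method B minus method A: Klf2 (-0.95), Klf3 (-0.48), Klf4 (-0.62), Klf9 (0.45) and Klf13 (-1.15). Since 49.6% of all genes tested also differed, and the control mice of the methods had different genotypes, these values are given without an explanation. Leaving out each of the 8 libraries in turn kept 4 to 6 members past the threshold; Klf4 lost it in 5 of 8 cases (without WT 1, WT 5 or stabilized 1, 2 or 3), with a difference of -0.90 to -0.41 over all 8, and Klf2, Klf3, Klf9 and Klf13 kept it in all 8.

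Of 40 sets of values of 1 gene in 1 group of cultures, 1 had a sample far from the others. Klf4 in WT 2 was at 8.42 TPM, where the other 5 WT cultures were at 2.17 to 4.45 TPM. On the CPM scale WT 2 (24.5) lay near its sister well WT 1 (17.1) and was not set apart. The 95% critical value used marks about 1 in 20 sets by chance if the values are independent. Sister wells are not, so this rate need not hold here.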

How the results depend on the processing

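Most alternatives changed neither direction nor call: 149 of 168 member values for WT cultures against acute ECs, 90 of 104 for acute ECs against GFP-negative cells, 131 of 144 for stabilized cultures against acute ECs and 173 of 208 for stabilized against WT cultures. The count of members called higher in WT cultures rose from 0 to 1 (Klf6) with library size scaling, the length correction, the replicate block, the short-read cultures and method A alone; for stabilized cultures against acute ECs it rose from 0 to 1 with library size scaling, no filter, the length correction, the replicate block, method A alone and, in the range 0 to 1, leaving out single libraries (stabilized 3, stabilized 4 or acute 2). Members called lower in WT cultures rose from 4 to 5 by Klf9 with DESeq2's size factors, DESeq2's test, the length correction, the fit of all 14 libraries, the short-read cultures, method B alone, and without WT 1 or WT 2, and by Klf13 with the replicate block and method A alone. Members called higher in acute ECs than in GFP-negative cells fell from 7 to 3 with the length correction, and leaving out single libraries gave 4 to 7. Between stabilized and WT cultures the replicate block took members called higher from 0 to 1 (Klf13), and leaving out libraries gave 0. In WT cultures against acute ECs, where the numbers do not pair the samples (correlation -0.031), the block gave Klf6 1.16 and Klf13 -1.35, both called.

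Signs turned mainly between stabilized and WT cultures, where no main value was called. They turned with the length correction for Klf2 (-0.10), Klf3 (-0.33), Klf6 (-0.023), Klf7 (-0.11) and Klf13 (-0.55), with the replicate block for Klf2 (-0.036), with library size scaling for Klf6 (-0.007), in method B alone for Klf2 (-0.53) and Klf3 (-0.26), with method as a term over 8 libraries for Klf2 (-0.12), Klf4 (-0.15), Klf6 (-0.19), Klf7 (-0.084) and Klf9 (-0.22) and over 10 libraries for Klf2 (-0.13). In short-read cultures alone they turned for Klf6 (-0.19), Klf7 (-0.18) and Klf9 (-0.29), in method A alone for Klf6 (-0.086) and Klf9 (-0.43), and in method B with 36 cycles for Klf2 (-0.60), Klf4 (-0.48), Klf6 (-0.28), Klf7 (-0.41), Klf9 (-0.003) and Klf13 (-0.23). Leaving out single libraries gave -0.20 to 0.29 for Klf2, -0.009 to 0.25 for Klf3, -0.058 to 0.12 for Klf6 and -0.06 to 0.40 for Klf9. Elsewhere signs turned for Klf10 in WT cultures (-0.044 in short-read cultures, -0.14 to 0.675 leaving out libraries) and in stabilized cultures against acute ECs (0.47 with the length correction, -0.52 to 0.33 leaving out libraries), for Klf13 with the length correction (0.53 in WT and 0.003 in stabilized cultures), for Klf9 in acute ECs against GFP-negative cells (-0.48 to 0.11 leaving out libraries) and for Klf10 in the test of methods (-0.11 to 0.018). The cause was not tested.

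Library size scaling moved the median of all genes from 0.10 to 0.30 in WT cultures against acute ECs and from -0.06 to -0.44 in the sorted cells. Without the TPM minimum 3160 genes were called higher and 2825 lower in WT cultures, against 1866 and 1409. Method as a term called 66 genes higher and 10 lower over 8 libraries between stabilized and WT cultures, against 0. Leaving out single libraries kept 4 members called among the WT experiments. Start-site peaks were found for all 8 members in every library under each window, summit and q alternative. Of 32 mean TPM values 4 moved by over 1 SD with protein-coding transcripts alone.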
